A study of Triticum aestivum with 2 samples.

Results

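The data described here are the sections of the wheat root tip that carried the root cap, 2 of 8 outlined sections on a single Stereo-seq chip. In Stereo-seq, a cryosection is laid on an array of spots with known barcodes that bind its mRNA, so that every molecule keeps its place, and molecular identifiers (MIDs) make each molecule count once. The roots came from soil-grown seedlings of the Chinese Spring ecotype, for which the labels give no treatment, and were cut across at 10 μm. The chip of the root cap region held all 8 sections, and a second chip held the distal root region. Each chip is 1 library, so the sections are parts of 1 sample and not replicates, and no test between them was made.

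The sections lay in 2 strips of 4, each with 1 root cap section and 3 others. Members were chosen by place: a spot belonged to a section if it fell inside a circle drawn around it, with radii of 280 and 310 spots for root cap sections 1 and 2 and of 415 to 590 spots for the 6 other sections. The circles were drawn with the position of the study's root cap genes already known. All levels are MIDs per 1000000 nuclear MIDs of the section (CPM). Intervals are exact 95% limits that cover counting error only.

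The root cap is a sheath of cells over the root meristem. Its central columella cells sense gravity, its lateral cells secrete mucilage that eases the passage of the tip through soil, and its outermost cells are shed or die by a developmental program while new ones are made beneath them. A cross-section close to the very tip therefore cuts a core of meristem or columella with layers of cap around it, whereas a section farther back cuts epidermis, cortex and stele.

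The circles held 172319 and 183947 nuclear MIDs in the root cap sections and 246463 to 589834 in the others. MIDs also lay on the chip between sections. In the root cap sections the density was 2.04 to 2.55 times that of a ring 50 to 200 spots outside the circle, and in 4 of the others it was 1.37 to 1.65 times. Other sections 1 and 2 of strip 1 were less dense than their rings, at 0.687 and 0.824 times. Without both, 394 genes were higher and 1243 lower in the root cap sections, by the rule given next. Among the other sections, section 1 of strip 2 had the highest exonic share (83.2%, against 75.3 to 78.8% in the remaining 5). The share of its 100 most abundant genes was the lowest (23.4%, against 27.8 to 31.7%).

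The first question was which genes set the root cap sections apart. A gene was called higher if each root cap section exceeded the 6 summed others by at least 2-fold and also lay above the highest of the 6, and lower by the mirror rule, among 7503 genes with at least 50 MIDs over the 8 circles. By this rule 373 genes (4.97%) were higher in both root cap sections and 955 (12.7%) were lower. Of the 373 higher genes, 221 had under 50 MIDs in the 6 other circles together and so passed the minimum only through the root cap sections. The higher genes made up 11.3% of all nuclear MIDs in the root cap sections and 1.26% in the others, and the lower genes 2.80% and 11%. The median log2 ratio over all tested genes was -0.51, and when each root cap section was scaled to a median of 0 the calls split into 538 higher and 534 lower. When the limits of each section's ratio also had to exclude 1, 322 higher and 646 lower genes were called. At the border, TraesCS7A03G1066800 was just inside with 2.005-fold in the weaker section and TraesCS3D03G0865500 just outside with 1.997-fold.

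Each root cap section could also be read against its own strip alone, so that the 2 comparisons shared no section. Against the 3 others of strip 1, root cap section 1 had 733 genes higher (9.77%), and against those of strip 2, root cap section 2 had 634 (8.45%). Of these, 374 were called in both, which is 51.0% of the first list and 59.0% of the second. For lower genes the counts were 1933 (25.8%) and 2292 (30.5%), with 1035 in both, or 53.5% and 45.2%. Among the 373 higher genes, 104 were at least 16-fold higher, 105 lay between 4 and 16-fold and 164 under 4-fold. The group of 104 genes alone held 6.04% of the root cap sections' MIDs and 0.1475% of the others'.

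**Figure D1:**
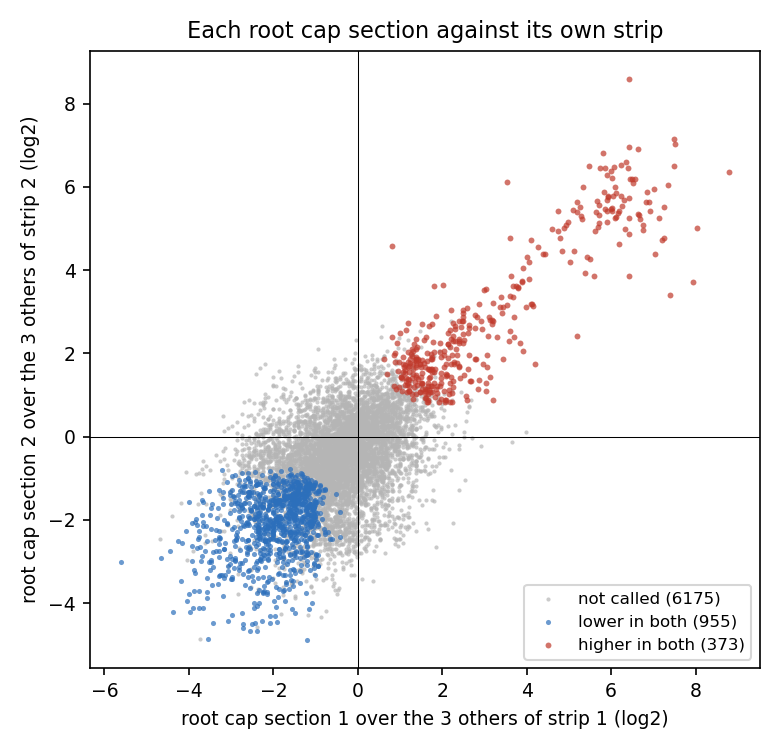
Each point is 1 of the 7503 tested genes, with the log2 ratio of root cap section 1 to the 3 others of strip 1 on the x axis and that of root cap section 2 to the 3 others of strip 2 on the y axis. The 373 genes called higher (red) reach far beyond the bulk in both strips, and the 955 called lower (blue) spread to the lower left.

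The label of the sections was checked with the study's root cap genes. The marker TraesCS2D03G0971800, which the study places in the orthogroup of Arabidopsis AT3G19430, stood at 708 CPM (122 MIDs) in root cap section 1 and at 391 CPM (72 MIDs) in section 2. In the 6 others its lowest, median and highest levels were 0, 7.61 and 28.4 CPM. Both root cap sections thus lay far above every other section, by 68.1-fold over the sum of the others (limits 41.9 to 117). The list of 19 root cap genes as a whole was at 4764 and 3001 CPM against 38.3 to 69.5 in the others, a ratio of 69.9 (58.2 to 84.7). Of the 19 genes, 10 passed the minimum of 50 MIDs and all 10 were called higher. The remaining 9 had 6 to 47 MIDs, and each of them had more in the 2 root cap circles than in the 6 larger others. The study took this list, like its lists for other cell types used below, from the top genes of its single-cell clusters. It kept those with the matching pattern on these chips. A gene of the list could also pass the minimum only through the sections where it is high. Neither count is therefore independent evidence of the label.

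The study's tables place 17 of the genes named in them in the AT3G19430 orthogroup. Of these, 11 were tested and 11 were higher, but the 11 had 2 to 18 MIDs in the 6 others, so they passed the minimum only through the root cap sections, and most are on the root cap list. Together the 17 gave 854 and 577 MIDs in the root cap sections and 123 in the 6 others. TraesCS3A03G1224100 was at 493 and 364 CPM against 0 to 9.59, and TraesCS2B03G1153200 at 574.5 and 369.7 against 1.70 to 8.12. TraesCS3D03G1163500 was at 609 and 457 against 0 to 13.6, and TraesCS3B03G1464600 at 221 and 179 against 0 to 3.07. The orthogroup's genes lie on the homoeologous chromosome groups 1, 2 and 3, several under neighbouring gene numbers, so reads may be split between near-identical copies and the level of a single copy is uncertain. A list of 31 genes of the study's single-cell cluster matched to root cap, known here only in part, had 17 genes outside the first list, 2 of them in this orthogroup. The other 15 were all under the minimum. They gave 42 MIDs in the root cap sections (121.9 and 114.2 CPM) and 51 in the 6 others (6.13 to 44.6 CPM), a ratio of 5.2 (3.37 to 7.98), and stood at 60.3 CPM on the distal chip.

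**Figure D2:**
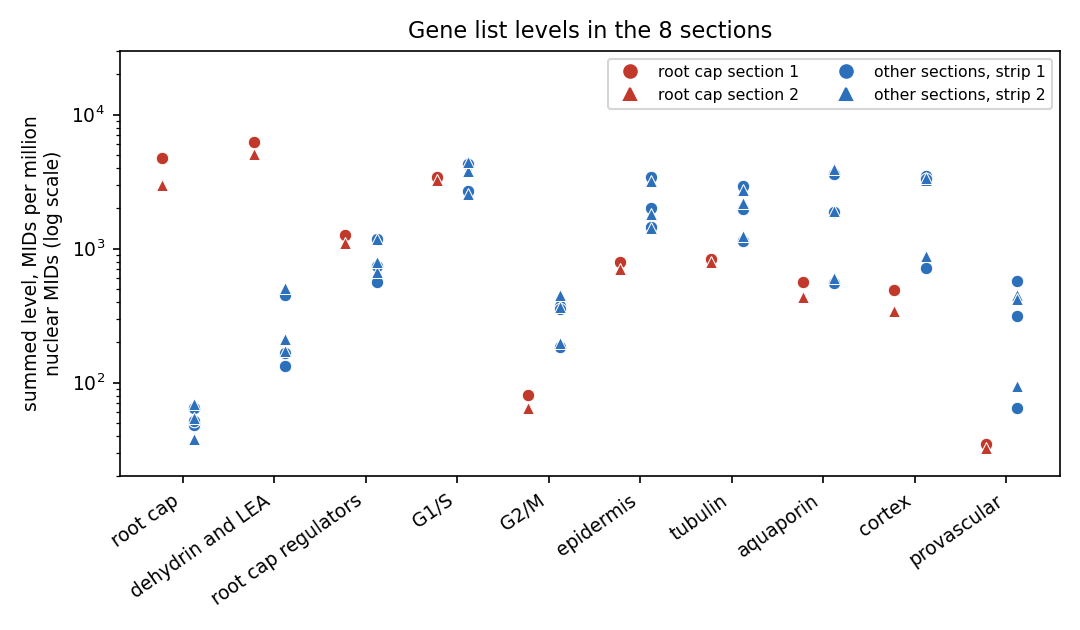
The y axis gives the summed level of each gene list in MIDs per 1000000 nuclear MIDs on a log scale, with red for the root cap sections, blue for the others, circles for strip 1 and triangles for strip 2. The root cap list is at 4764 and 3001 CPM in the root cap sections and at most 69.5 elsewhere, whereas the G1/S list overlaps between both kinds of section.

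The place of the MIDs within a section was then read. For the root cap list it is a description. The study kept these genes of a single-cell cluster by their pattern on the chips, and the circles were drawn with that pattern known. The outer zone, the outer 50% of the area of each circle, held 49.05% of all nuclear MIDs of the root cap sections and 93.6% (92.2 to 94.8) of those of the root cap list, 90.6% in section 1 and 98.0% in section 2. By distance from the centre, the list went from 0 MIDs in the innermost 50 spots of both sections to its densest band at 250 to 300 spots in section 1 (5881 MIDs per 1000000 spots) and at 300 to 350 spots in section 2 (4654). All nuclear MIDs filled the core too, at 681600 to 757700 per 1000000 spots in every band up to 250 spots in section 1, and unevenly at 483100 to 776800 in every band up to 300 spots in section 2. The ring of root cap MIDs straddled the circles: of those within 600 spots of the centre, 52.3% lay inside the circle of section 1 and 41.1% inside that of section 2. The G1/S list had 43.27% (40.4 to 46.1) of its MIDs in the outer zone. This was close to the median share of 43.31% among the 614 genes with at least 50 MIDs in the root cap circles that were not called. The 2 circles held 17.4% of the chip's MIDs of the root cap list and 1.26% of its nuclear MIDs overall. All 8 circles together held only 9.215% of the chip's nuclear MIDs. Of the list's 7903 MIDs on the chip, 1570 and 1343 lay within 600 spots of the 2 centres, so most lay farther away.

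**Figure D3:**
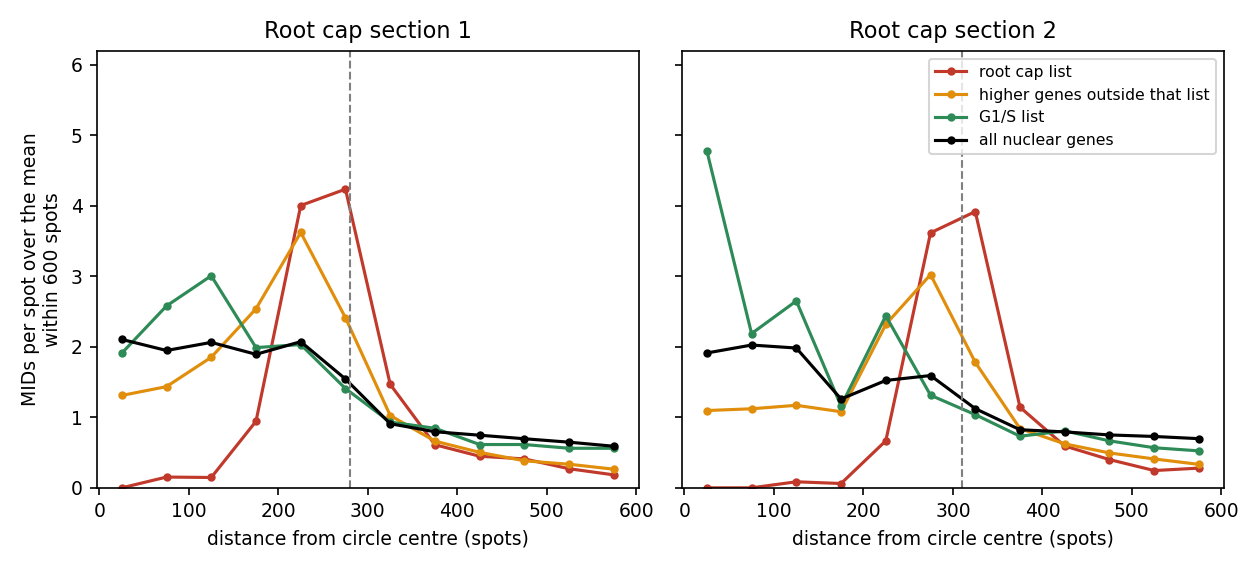
The x axis is the distance from the circle centre in spots (bands of 50) and the y axis the MIDs per spot relative to the mean within 600 spots, for 4 gene sets in each root cap section, with the circle's radius dashed. The root cap list (red) peaks at the edge of both sections, at 250 to 300 and 300 to 350 spots, and is near 0 in the core.

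The root cap list made up 10 of the 373 higher genes. The most abundant of the 373 genes, named here after their values were seen, have no protein name in the sources used. TraesCS3A03G0931000 was at 6134 and 6094 CPM in the root cap sections and at 88.9, 100.0 and 211 in the lowest, median and highest other section, or 51.7-fold (45.5 to 59.0) higher. TraesCS1D03G0780000 followed at 6140 and 5197 against 161 to 462.5, and TraesCS3D03G0864500 at 5211 and 5366 against 73.6 to 284. TraesCS1A03G0810500 (4190 and 3811 CPM), TraesCS1B03G0934500 (3830 and 3577) and TraesCS3B03G1057000 (3116 and 3028) came next. These 6 genes sit on chromosomes 3A, 3B, 3D, 1A, 1B and 1D, and 68.5 to 75.3% of their MIDs in the root cap sections lay in the outer zone. They were thus more peripheral than nuclear MIDs overall but less so than the AT3G19430 orthogroup (93.9%).

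Ranked by the lower limit of the ratio, the most distinct gene was TraesCS4D03G0757400, with 49 and 53 MIDs in the root cap sections (284 and 288 CPM) and 1 in the 6 others, a ratio of 644 (113 to 25690). TraesCS4D03G0681600 had 71 MIDs against 1, at 197 and 201 CPM, and 95.8% of them were in the outer zone. TraesCSU03G0464900 and TraesCS6D03G0568300 had 73 and 71 MIDs against 3 each. By place, TraesCS6D03G0568300 had 26.8% (16.9 to 38.6) of its MIDs in the outer zone and so lay towards the core. TraesCS5B03G0668900 stood at 1219 and 1310 CPM against 3.03 to 28.8 in the others. TraesCS2A03G1291000 (667 and 342.5 CPM) and TraesCS2B03G1483000 (603.5 and 326) were also above every other section, with 94.4% and 97.6% of their MIDs in the outer zone.

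Dehydrins and other late embryogenesis abundant (LEA) proteins, hydrophilic proteins that accumulate in drying seeds and tissues and in response to abscisic acid, formed an annotated group outside the marker list. Of 12 such genes taken from the study's annotation, 6 were tested and 6 were higher, against 4.97% of all tested genes, and 4 of the 6 passed the minimum only through the root cap sections. The summed list stood at 6227 and 5088 CPM against 133, 192 and 506 in the lowest, median and highest other section (22.2-fold, 20.2 to 24.4). The dehydrin DHN3-like gene TraesCS6D03G0772700 was at 1236 and 859 CPM against 5.89 to 38.4. The Rab15-like dehydrins TraesCS5A03G1006700 (882 and 533 CPM), TraesCS5B03G1052600 (771.8 and 641.5) and TraesCS5D03G0953200 (446.8 and 413) were each below 20 CPM in every other section. The LEA41-like gene TraesCS3B03G0498100 had the highest level, at 2281 and 2202 CPM against 72.7 to 394. The annotation words used here came from some of the study's single-cell clusters only, so these counts are a description of named genes and not of the family. Across the sections 61.8% (59.7 to 64.0) of the list's MIDs lay in the outer zone, but TraesCS5A03G1006700 had 39.2% (33.1 to 45.6) there and was more central than nuclear MIDs overall. On the distal chip the list was at 1161 CPM, above all 6 other sections of the tip.

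Some smaller annotated groups were picked after their values were seen, so their counts are a description, beside 4.97% higher among all tested genes. All tested members were higher in these groups, except among the chitinases. All 3 annotated subtilisin-like proteases, which are secreted serine proteases, were higher, at 1190 and 908 CPM together against 258 to 346, and 88.2% (84.5 to 91.3) of their MIDs lay in the outer zone. Both genes for phytepsin, a vacuolar aspartic protease of cereals, were higher at 673 and 619.7 CPM against 122 to 213. Both gamma-glutamylcyclotransferase genes, whose enzymes degrade glutathione, stood at 1352 and 1745 CPM against 147 to 621. Both UPF0098 genes were at 934 and 848 against 4.06 to 33.6. With 44 MIDs together in the 6 others, both passed the minimum only through the root cap sections. Of 3 phenylalanine ammonia-lyase genes, which catalyse the entry step of phenylpropanoid synthesis, 2 were tested and 2 were higher, at 255 and 369.7 CPM for the 3 together. Of 5 tested genes annotated as chitinases 2 were higher and 3 had a ratio below 1. The chitinase 8-like gene TraesCS1A03G0542400 was at 226 and 136 against 0 to 49.0, with 96.9% (89.2 to 99.6) of its MIDs in the outer zone.

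The higher genes were not all peripheral. With at least 50 MIDs in the root cap circles, 172 higher genes could be placed: the limits of their outer share lay wholly above 49.05% for 110 of them (64.0%) and wholly below it for 22 (12.8%). Of 614 genes that were not called, 47 (7.65%) were peripheral and 188 (30.6%) central by the same measure. Without the root cap list, 100 of 162 higher genes (61.7%) were peripheral. The annotated central genes, picked out after their values were seen, were the defensin-like TraesCS2B03G1008200, the Bowman-Birk type trypsin inhibitor TraesCS3B03G0087500, the metallothionein TraesCS3D03G0146400, TraesCS7D03G0781700 (uncharacterized) and the dehydrin named above. TraesCS2B03G1008200, annotated as defensin-like protein CAL1, which binds cadmium in rice, was at 412 and 413 CPM against 15.3 to 268 in the others, and 19.05% (limits 13.05 to 26.3) of its MIDs lay in the outer zone. Of the other two tested defensins, TraesCS4B03G0840800 was lower (2 MIDs against 217) and TraesCS4D03G0748700 was not called (5 against 167). TraesCS3B03G0087500 was at 1561 and 1435 CPM against 82.8 to 394, with 25.1% (21.5 to 29.05) in the outer zone. The family of serine protease inhibitors was not uniform, since of 7 Bowman-Birk genes 6 were tested, 1 was higher and 1 (TraesCS1D03G0042100) was lower.

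**Figure D4:**
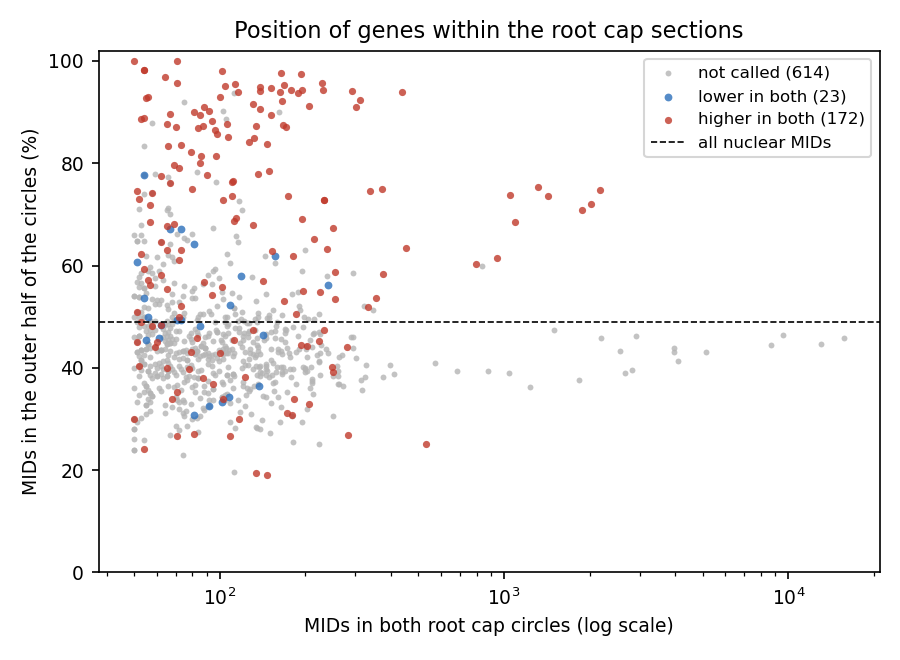
For the 809 genes with at least 50 MIDs in the 2 root cap circles, the x axis gives those MIDs (log scale) and the y axis the percent of them in the outer zone, with the share of all nuclear MIDs (49.1%) dashed. Most of the 172 higher genes (red) lie above the line, whereas most of the 614 genes that were not called (grey) lie below it.

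Among the 955 lower genes, the first by the limit of the ratio was unnamed. TraesCS2D03G1167400 was at 52.2 and 21.8 CPM in the root cap sections against 325, 486 and 979 in the lowest, median and highest other section, or 17.04-fold (9.93 to 32.1) lower. The subtilisin-chymotrypsin inhibitor TraesCS1A03G0098300 stood at 52.2 and 97.9 against 552 to 1163. The UDP-glucose 6-dehydrogenase TraesCS5D03G0900300, whose enzyme makes a sugar nucleotide for cell wall polysaccharides, had 3 MIDs in section 1 and 0 in section 2, and 374 in the others. The glycine-rich cell wall protein TraesCS5D03G1173000 was at 34.8 and 32.6 CPM against the narrow range of 299.6 to 376. TraesCS4B03G0542500, which encodes a Ran-binding protein of nuclear transport and spindle assembly, had 0 MIDs in both root cap sections and 149 in the others. With 0 set to the floor of 3 MIDs, its level was 7.87-fold lower. All 3 annotated Ran-binding protein 1 genes were lower, with 6 MIDs against 593. All 3 adenosylhomocysteinase genes of the methylation cycle were lower too, at 128 and 76.1 CPM together against 252 to 1359. Both groups were picked after the values were seen, so their counts are a description, beside 12.7% lower among all tested genes.

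**Figure D5:**
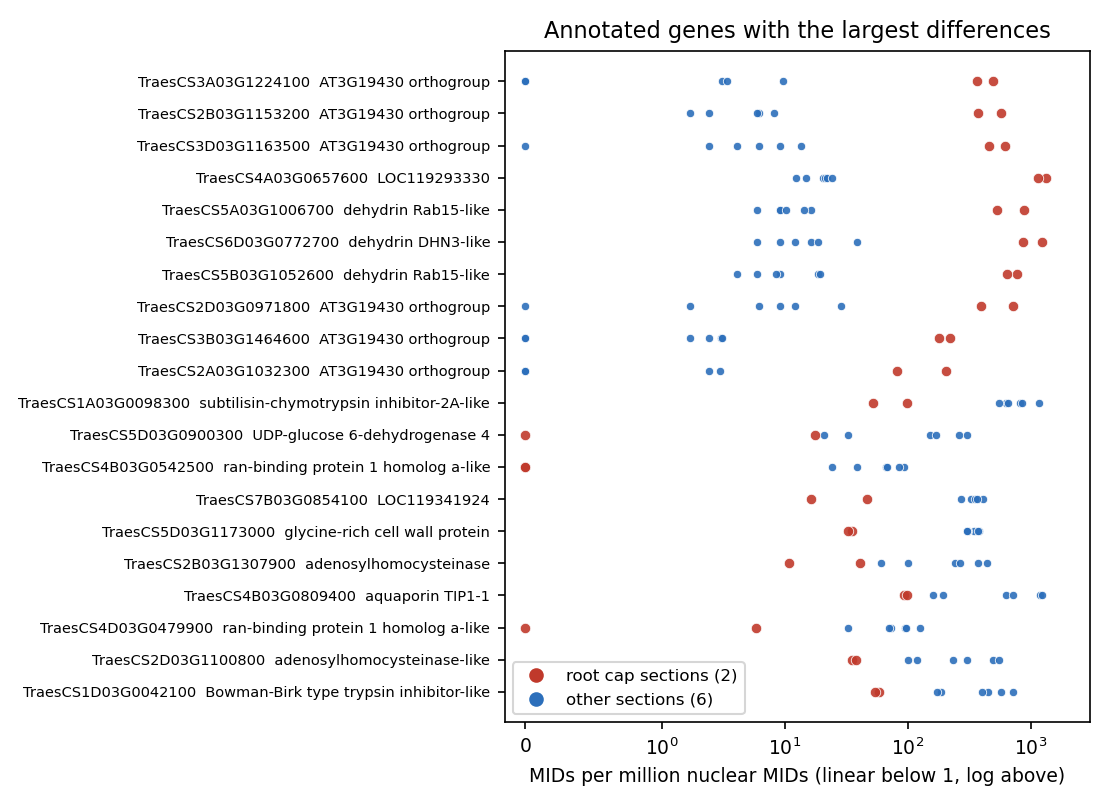
Levels of the 20 annotated genes with the largest differences, in MIDs per 1000000 nuclear MIDs (linear below 1, log above), with 1 point for each section. The 2 root cap sections (red) lie above all 6 others (blue) for the upper 10 genes and below all 6 for the lower 10. The rule for a call requires this separation, so only its size is informative.

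The counts for larger gene families from the study's annotation are read against the 4.97% higher and 12.7% lower among all tested genes. Of 20 tubulin genes, subunits of microtubules, 15 were tested, 9 were lower and 0 were higher, and the list stood at 835.7 and 799 CPM against 1148 to 2927. The other families had 0 to 2 lower genes each, too few to set apart from that share. Of 21 aquaporins, 12 were tested and 1 was lower, the vacuolar water channel TIP1-1 (TraesCS4B03G0809400) at 92.85 and 97.85 CPM against 158 to 1227. The aquaporin list itself was at 569 and 435 CPM against 556 to 3902, so root cap section 1 did not lie below every other section. Of 34 wall-loosening expansins 8 were tested, with 1 higher and 2 lower, and of 17 annexins 4 were tested with no call. Germins (5 tested, 1 lower), glutathione S-transferases (6 tested, 1 higher, 1 lower) and a list of chitinases with pathogenesis-related proteins (7 tested, 1 higher) had summed levels within the range of the other sections. All genes annotated as chitinases, which include the epidermal TraesCS3D03G1015700, summed to 632.5 and 456.7 CPM against 158.9 to 349.9. Of 27 GDSL esterases, 9 cellulose synthases and 13 xyloglucan endotransglycosylases none reached 50 MIDs.

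Lists for the other cell types of the root were then read in the same way. In summed spots, fewer cells of a type and less RNA per cell cannot be told apart. The epidermis list was at 801 and 707 CPM in the root cap sections and at 1426, 1912 and 3441 in the lowest, median and highest other section, or 2.80-fold (2.48 to 3.18) lower. Of its 18 genes 17 were tested and 12 were lower, but the chitinase CLP-like TraesCS3D03G1015700 was higher, at 313 and 266 CPM against 15.3 to 114. The cortex list was at 493 and 342.5 CPM against 722 to 3481, or 6.45-fold (5.48 to 7.65) lower. Of its 13 tested genes 2 were called lower, near the 12.7% of all tested genes. TraesCS2B03G1383800LC alone gave 3041 of the list's 6032 MIDs in the others. All 13 had a ratio below 1, but for TraesCS3A03G0974500, a cortex marker named by the paper, it was 0.963 (0.617 to 1.45). Most of its difference came from 4 sections with 3235 to 3481 CPM, since the first section of each strip was at 722 and 883. The provascular list was lowest relative to the others, with 6 MIDs in each root cap section (34.8 and 32.6 CPM) against 64.9 to 573, or 10.3-fold (5.87 to 20.1) lower.

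Vascular and endodermal genes were near their detection limit. The xylem list gave 2 MIDs in each root cap section (11.6 and 10.9 CPM against 8.83 to 134), so the groups overlapped. The endodermis list gave 2 MIDs in section 1 and 0 in section 2, against 77 in the others, or 6.10-fold (1.63 to 51.2) lower. The phloem and pericycle lists gave 1 MID each in the root cap sections and 0 and 4 in the 6 others. A difference was not detectable at this depth for phloem and pericycle.

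The cell cycle lists parted. The G1/S list, of genes the study ties to the entry into DNA replication (1 of them, TraesCS1A03G0090800, is annotated as an orthologue of a rice histone H2A), was at 3424 and 3251 CPM, inside the range of the others (2552, 4012 and 4444). Of its 20 genes 20 were tested and none was called, and its log2 ratio of -0.15 (-0.24 to -0.06) was 0.36 above the median gene. The G2/M list, of genes expressed from the end of replication to division, had 14 MIDs in root cap section 1 and 12 in section 2, at 81.2 and 65.2 CPM against 184, 362 and 453 in the others. Both root cap sections lay below all 6 others, by 4.41-fold (2.985 to 6.80), or 1.63 on the log2 scale below the median gene. Of its 20 genes 5 were tested and 1 was lower, TraesCS7D03G1262100. Among all tested genes 12.7% were lower and 20.4% lay below all 6 others, so the call of 1 gene does not set the list apart. TraesCS2D03G0803000, the member with the second most MIDs, had 0 in both root cap sections and 65 in the others.

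The transcription factors that the study predicted as root cap regulators from single cells gave a mixed picture. Of 117 genes 74 had an MID in the circles and 17 were tested, of which 4 were higher and 4 lower. Among all tested genes 4.97% were higher and 12.7% lower. Summed, they stood at 1271 and 1109 CPM against 560, 768.5 and 1189, so root cap section 2 lay within the range of the others. The higher genes were TraesCS2B03G1017100 (MYB4-like) and the 3 genes for NAC domain-containing protein 2-like. The 3 NAC genes had 30 to 43 MIDs in the 6 others, so they passed the minimum only through the root cap sections. TraesCS5B03G1172400, 1 of these NAC genes, was at 191.5 and 174 CPM against 10.2 to 28.8, and TraesCS5D03G1060100 at 127.7 and 174 against 3.03 to 29.4. TraesCS5A03G1103200 had 116 and 119.6 CPM against 3.39 to 26.5. The lower genes include the ocs element-binding factor 1-like genes TraesCS5B03G0238100 and TraesCS5A03G0223200. The genes in the orthogroups of WRKY17, WRKY26, WRKY40 and ANAC081 were too rare to test. TraesCS3A03G0950500, the best covered of the ANAC081 orthogroup, had 5 and 3 MIDs in the root cap sections and 3 in the 6 others. The paper also lists this gene under ANAC002, as a predicted regulator in xylem. The 3 genes of the WRKY17 orthogroup had 3, 2 and 3 MIDs against 17, 18 and 17.

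The 2 root cap sections were also set against each other. Of 809 genes with at least 50 MIDs over both, 13 (1.61%) were at least 2-fold higher in section 1 and 5 (0.618%) in section 2. TraesCS2D03G0971100 of the AT3G19430 orthogroup differed most, with 47 MIDs (273 CPM) in section 1 and 9 (48.9 CPM) in section 2, or 5.58-fold (2.70 to 12.9). TraesCS2D03G0971700 and TraesCS2A03G1032300 of the same orthogroup were 2.09 and 2.49-fold higher in section 1, as was the unnamed TraesCS2A03G1290500 (2.02-fold). Of the 13 genes, these 4, TraesCS4A03G1056900LC and TraesCS3D03G0684200 had 90.65 to 100% of their MIDs in the outer zone, and the other 7 had 44.2 to 64.5%. In the other direction TraesCS1A03G0429000 was at 81.2 CPM in section 1 and 250.1 in section 2, and it was not called against the other sections. The circles held 52.3% and 41.1% of the root cap MIDs around sections 1 and 2, and the part of this in the differences was not tested.

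Some readouts did not separate the sections. The exonic share of nuclear MIDs was 76.55% and 75.7% in the root cap sections, within the range of 75.3 to 83.2% in the others. Genes of subgenome A took 35.99% and 36.18% of the MIDs in the root cap sections (35.01 to 36.52% in the others), and those of D 30.92% and 30.59% (29.88 to 31.16%). For B the shares of 30.11% and 30.09% were just below the range of 30.21 to 31.99%. Of the higher genes 30.0% lay on A, 32.4% on B and 36.7% on D, and of all tested genes 33.2%, 33.5% and 32.4%. The 5 genes with the most MIDs, led by TraesCS6B03G0292300LC at 43440 and 44770 CPM against 27570 to 47920, were at 1.11 to 1.14 times the summed others. The number of genes detected did differ at a fixed depth of 172319 MIDs: 25261 and 25367 in the root cap sections against 23367 to 25096 in the others, where section 1 of strip 2 was the highest.

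The distal root chip, a separate library scaled on its own total, was used to see whether the genes are found elsewhere in the root. The root cap list gave 47 MIDs there, or 0.606 CPM, below the 38.3 to 69.5 CPM in the other sections of the tip chip. In rings around those 6 sections the list was uneven. It stood at 544.7 CPM around other section 3 of strip 2, at 180.1 around other section 3 of strip 1 and at 26.7 to 55.2 around the rest. Those 2 sections are the nearest to the root cap section of their strip. At 550 to 600 spots from the centres of root cap sections 1 and 2 the list was still at 1200 and 1242 CPM. The part of these MIDs in the 2 rings was not tested. Genes chosen as high in the root cap sections are favoured to be lower elsewhere: of the 373 higher genes 367 were below the root cap level on the distal chip, 322 by at least 2-fold, and of all 7503 tested genes 3243 and 1035 were. Of the 104 genes at least 16-fold higher 55 were also at least 16-fold below the root cap level there. Their own median on the distal chip was 16.6 CPM, and single genes such as TraesCS3D03G0864500 reached 949. Of the 955 lower genes 897 were above the root cap level on the distal chip, and of all tested genes 4258.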

How the data were processed

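Sections of wheat roots were measured on 2 Stereo-seq chips, 1 library each. Per the study's methods, the authors ran the STOmics Analysis Workflow from reads to a table. The deposited counts give MIDs and exonic MIDs for each gene at each spot, raw and for the full chip surface, tissue or not. For these chips the sources used here name neither aligner settings nor genome build. The counts were summed in Python 3.11.15 (numpy 2.4.6, pandas 2.3.3, scipy 1.17.1) over the spots of each circle and divided by the nuclear MIDs (2605986 in 8 circles). The 30 organelle MIDs were left out. Ratios have exact 95% conditional binomial limits and shares Clopper-Pearson limits, a count of 0 was set to a floor of 3 MIDs, and MIDs at neighbouring spots may not be independent. The calls were also run on simulated counts, with counting error only and with changes larger than 2-fold in well covered genes. That run does not cover differences between sections, sparse genes or changes near the 2-fold limit.

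The members, lists and rules were chosen with earlier results of these data known. Named genes were the marker, the 10 higher and 10 lower called genes with the most extreme limits, the same among annotated genes, up to 3 of the most abundant genes of a described list, the 5 most abundant genes and the 5 each way that differed most between the root cap sections. Not all of them are printed. Names come from the study's tables, which annotate 373 of the 7503 tested genes. No gene ID was found in the reference table, so no sequences are shown. Alternatives changed the minimum of MIDs, the reference, the scaling, the gene IDs, the radius, the background and the sections used.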

Additional observations from a re-analysis of the deposited data

Results flagged for a closer look

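Among the 6 other sections, 16 measures were checked for a section far from the rest, and chance alone sets a section apart in about 1 in 20. Other section 1 of strip 2 had the lowest share of MIDs from the A subgenome (35.01%) and the highest from the B subgenome (31.99%), each set off from the next section by more than the critical share of the range. Without this section 421 genes were higher and 1051 lower in the root cap sections.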

How the results depend on the processing

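Over the 16 or 17 alternatives run for each list, log2 ratios were 5.53 to 6.64 for root cap, -1.59 to -0.89 for epidermis, -2.97 to -2.13 for cortex, -4.25 to -1.63 for G2/M and -0.24 to 0.36 for G1/S, which changed sign under 2 of them. Setting the median gene to 0, added for the lists after seeing the data, gave 0.36 for G1/S, 6.64 for root cap, -0.97 for epidermis and -2.18 for cortex. Subtraction of the ring density used 4 other sections and gave 0.056 for G1/S, -0.89 for epidermis, -4.25 for G2/M and a difference in exonic share of -10.5 percentage points (main -2.07). It gave no value for the root cap and cortex lists, since it left the summed list at or below 0 in a group. Higher genes numbered 1095 with a minimum of 20 MIDs, 164 with 100 and 3322 with 1. With medians set to 0 there were 534 lower genes. With root cap section 1 or 2 alone there were 639 and 619 higher and 1759 and 1910 lower genes, root cap values of 6.43 and 5.77, cortex values of -2.44 and -2.97, and exonic differences of -1.65 and -2.465. A radius 10% smaller gave 5.53 for root cap, -1.26 for epidermis and -2.477 for the exonic share, and 10% larger -1.31 for the latter. Without low confidence gene IDs cortex was -2.13 and the exonic difference -0.77, and without the 100 most abundant genes the latter was -0.23.

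Leaving out each other section in turn gave 370 to 421 higher and 961 to 1233 lower genes, root cap 6.05 to 6.22, epidermis -1.59 to -1.35, cortex -2.85 to -2.58, G1/S -0.24 to -0.038, G2/M -2.26 to -2.03 and exonic share -2.73 to -1.18. The exonic difference rested in part on other section 1 of strip 2, without which it was -1.18. Without both sections that were less dense than their rings, an alternative chosen after seeing the data, there were 394 higher and 1243 lower genes, with 94.9% and 97.4% of the main calls retained. The G1/S ratio is close to 0 and its direction is not settled. No paired analysis was possible because there are no replicate samples to pair; each root cap section against its own strip gave 374 higher and 1035 lower genes. With 172319 to 183947 MIDs per root cap section, genes under 50 MIDs over the 8 circles, most of the transcription factors among them, could not be placed.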
